A study of Ovis aries with 54 samples.

Results

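Lung tissue of unexposed control sheep is described here, first by its most abundant genes and then by the difference between pieces whose titles carry the code LC and pieces with the code RA. The control pieces were chosen by their treatment label alone, which gave 4 of the 18 tissue pieces and 12 of the 54 libraries of the series. The LC pieces came from sheep 10 and sheep 18, and the RA pieces from sheep 7 and sheep 9, each piece sequenced as 3 libraries that were summed. All 4 sheep (Ovis aries) were labelled as controls, and the sources used here do not state their strain, age, sex or genotype. The remaining pieces, 7 given porcine elastase with lipopolysaccharide and 7 given saline, were not used. The series concerns a sheep model of chronic obstructive pulmonary disease and its design text speaks of lung lobes, whereas the tissue label itself reads only "tissue". The sources used here do not say what LC and RA stand for. Because every control piece came from another sheep, code and animal cannot be told apart. Pairs of values below belong to sheep 10 and sheep 18 for LC, and to sheep 7 and sheep 9 for RA.

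The gas-exchange surface of the lung is lined by flat alveolar type 1 cells and by cuboidal type 2 cells, which make surfactant, the mixture of lipids and proteins that lowers surface tension. Airways carry a separate epithelium of ciliated, secretory and basal cells over cartilage and smooth muscle, so a piece of lung with more airway in it carries more RNA of those cells. In bulk tissue, fewer cells of a type and less RNA per cell cannot be told apart.

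The LC pieces held 30453399 and 41946705 counts, and the RA pieces 30756211 and 23106036. Levels are given as CPM, counts scaled to a common library size by TMM, an edgeR method that takes most genes as equal between pieces, and on that scale 3 counts correspond to 0.0648 CPM in the piece of sheep 18 and to 0.164 CPM in that of sheep 9, the ends of the range. The RA piece of sheep 9 stood apart. Its 30 highest genes took 24.8% of its counts, against 14.9% to 16.6% in the other 3 pieces, and transcripts of the mitochondrial genome took 0.768%, against 1.31% to 1.68%. Of 18063 genes tested, 1146 were at least 2-fold above and 1557 at least 2-fold below all other pieces in the piece of sheep 9, against 277 to 546 and 421 to 731 in the others. Among all genes tested, its level was the highest of all pieces for 5755 genes and the lowest for 6266. These counts were 3543 and 3348 for sheep 10, 5013 and 4580 for sheep 18, and 3752 and 3869 for sheep 7. With scaling by library totals alone they were 3157 and 9349 for sheep 9. The title of the sheep 9 piece also has a longer form than those of the other control pieces. For some of the results that rest on this piece, values without it are therefore given as well.

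The lung origin named in the design text was checked against surfactant genes, which hardly any tissue but lung uses at such levels. SFTPC, encoding surfactant protein C, was the highest gene in every piece, at 19168 and 32205 CPM in LC and 43938 and 45527 CPM in RA tissue, a mean of 35210 ± 12234 CPM (SD, n = 4). It took 2.08% and 3.55% of all counts in LC and 4.62% and 3.61% in RA tissue. SFTPA1, a collectin of surfactant, ranked 9 by mean level, behind several ribosomal protein genes, with 2753 and 5604 CPM in LC and 7214 and 3228 CPM in RA tissue, and the codes overlapped. SFTPB, which spreads the surfactant film, ranked 78 and had 973 and 2139 CPM in LC and 1624 and 832 CPM in RA tissue. SFTPD, the other collectin, ranked 315, with 224 and 527 CPM in LC and 447 and 446 CPM in RA tissue. The piece of sheep 10 had the lowest level for 10 of the 15 type 2 genes tested and that of sheep 9 for 3, but with scaling by library totals alone these counts were 4 and 11. NKX2-1, the transcription factor that keeps lung epithelium in its identity, was even across pieces, at 29.4 and 30.6 CPM in LC and 38.2 and 38.1 CPM in RA tissue.

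The other genes among the 30 most abundant belonged to few groups. Of these 30 genes, 14 encoded ribosomal proteins, among them RPL32 with 9717 and 4812 CPM in LC and 7424 and 21589 CPM in RA tissue. With TMM scaling all 14 were highest in the piece of sheep 9, as were 22 of the 30 and 5755 of all 18063 genes tested. As a share of all counts, RPS18 was instead highest in sheep 10, at 0.528% against 0.454% in sheep 9. Actin-binding and cytoskeletal genes formed a further group. TMSB10, a thymosin that binds actin monomers, had 6459 and 5385 CPM in LC and 5373 and 17211 CPM in RA tissue. ACTB, cytoplasmic actin, had 3310 and 5859 CPM in LC and 3989 and 5593 CPM in RA tissue, and MYL6, a myosin light chain, 2409 and 1922 CPM in LC and 4231 and 6726 CPM in RA tissue. Apart from sheep 9 the thymosin gene was close to level, while the 2 codes did not overlap for MYL6.

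PRDX6, a peroxiredoxin that also acts on surfactant phospholipids, had 4180 and 5722 CPM in LC and 4596 and 2671 CPM in RA tissue. CA3, carbonic anhydrase 3, had 2414 and 4254 CPM in LC and 2797 and 2666 CPM in RA tissue. Both were among the steadier genes of the 30, with SDs of 0.46 and 0.36 on the log2 scale over the 4 pieces. B2M, the light chain of class I antigen-presenting molecules, had 2088 and 2240 CPM in LC and 1795 and 5336 CPM in RA tissue. ATP6, a subunit of the ATP synthase encoded in mitochondria, had 3327 and 3468 CPM in LC and 3175 and 1638 CPM in RA tissue. It was the 1 gene of the 30 with both LC pieces above both RA pieces, and 5 had both LC pieces below, where 17% and 15.2% of all genes tested did so. Those 5 were SFTPC, RPS14, MYL6 and the unnamed IDs LOC114112489 and LOC101110099. LOC114112489, an rRNA gene by its RefSeq biotype, had 1985 and 1353 CPM in LC and 5517 and 7281 CPM in RA tissue. LOC101108654, a protein-coding gene without a symbol, ranged most of the 30, with 11054 and 651 CPM in LC and 501 and 3460 CPM in RA tissue. The order of genes is an order of counts from poly-A-primed libraries and was not corrected for transcript length. Of the 30 genes, 23 stayed among the 30 when sheep 9 was left out and 25 when the pieces were ranked by their median.

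**Figure D1:**
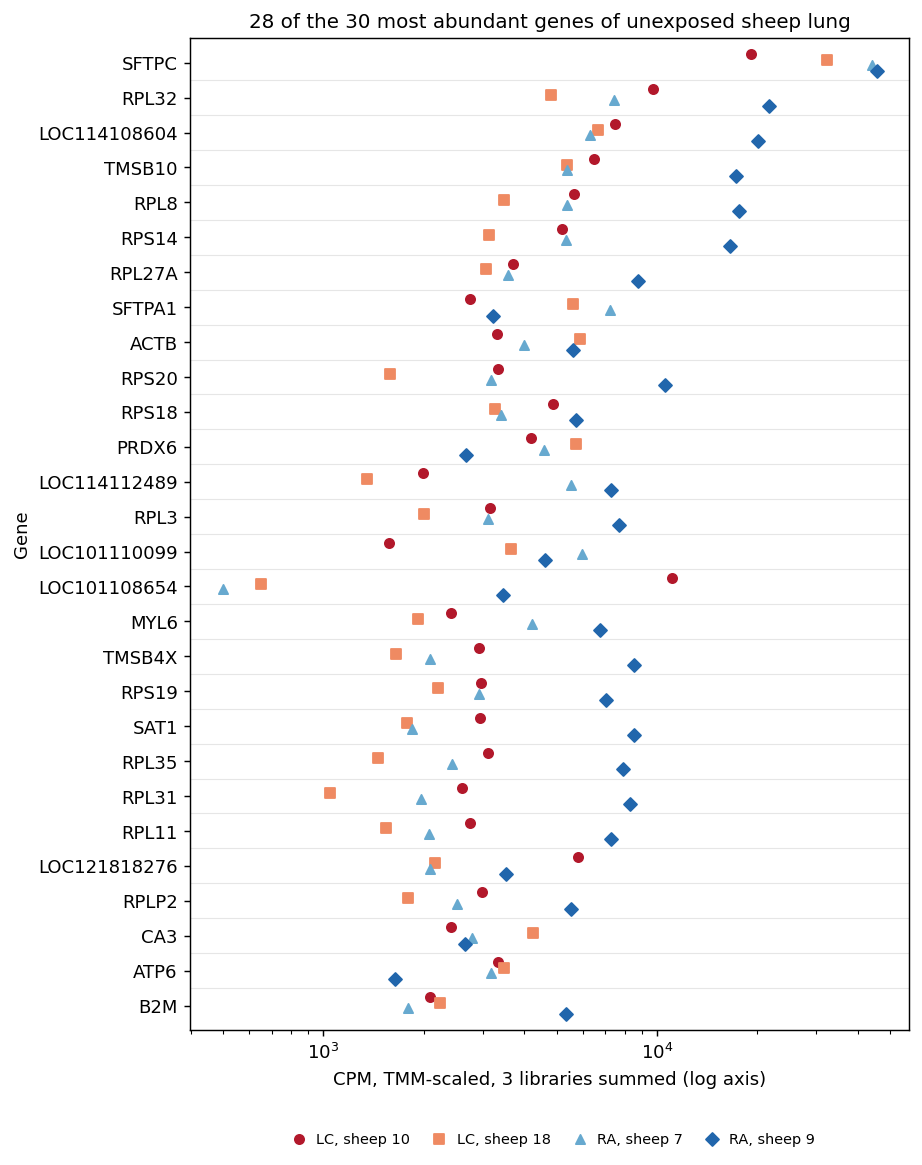
The most abundant genes (28 of the 30), highest mean at the top, with CPM on a log axis and 1 point per piece (LC of sheep 10 and 18 in red shades, RA of sheep 7 and 9 in blue shades). SFTPC stands highest in all 4 pieces, and the ribosomal protein genes have their highest point in the piece of sheep 9.

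Below these, the tissue held transcripts of the other cell classes of lung at widely spread levels, with 15571 genes at a mean of 1 CPM or more, 1793 at 100 or more and 113 at 1000 or more. AGER, a receptor concentrated on alveolar type 1 cells, had 1161 and 1753 CPM in LC and 945 and 553 CPM in RA tissue. PECAM1, an adhesion molecule of endothelium, was among the evenest genes of the tissue, at 351 and 449 CPM in LC and 398 and 400 CPM in RA tissue. CDH5, the cadherin of endothelial junctions, was as even, with 233 and 297 CPM in LC and 270 and 266 CPM in RA tissue. Alveolar macrophage genes were high and uneven. MARCO, a scavenger receptor, had 1132 and 2317 CPM in LC and 1297 and 2383 CPM in RA tissue, and C1QB, a subunit of complement C1q, 619 and 1714 CPM in LC and 685 and 837 CPM in RA tissue. JCHAIN, the joining chain of secreted IgA and IgM, had 1663 and 933 CPM in LC and 1293 and 1865 CPM in RA tissue, the highest value of the plasma cell list.

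Genes of airway structures were spread more widely over the pieces than genes of alveoli. The median SD of log2 CPM was 1.18 for secretory, 0.66 for ciliated and 1.53 for cartilage genes, and 0.43 and 0.50 for type 2 and type 1 cell genes, beside 0.54 for all genes tested. Cartilage genes were low and also spread between the 3 libraries of a piece. Those SDs were 0.34 to 1.19 for the 4 highest cartilage genes. They were 0.05 to 0.13 for the 4 highest secretory genes and 0.03 to 0.07 for the surfactant genes named above. Of 15 secretory genes 12 were highest in the LC piece of sheep 10, as were 16 of 20 ciliated cell genes and 10 of 11 cartilage genes. Sheep 10 was highest for 3543 of all 18063 genes tested. SCGB3A2, a secretoglobin of club cells, had 5804 and 800 CPM in LC and 844 and 3219 CPM in RA tissue. TFF3, a trefoil peptide of mucous cells, had 4035 and 613 CPM in LC and 1014 and 3010 CPM in RA tissue. For both, sheep 10 and sheep 9 were high and sheep 18 and sheep 7 low, so the codes overlapped. The summed level of the cartilage genes was 116.8 and 22.2 CPM in LC and 33.9 and 19.8 CPM in RA tissue, and COL2A1, the main collagen of cartilage, stood at 9.11 and 0.0864 CPM in LC and 0.928 and 0.328 CPM in RA tissue. Smooth muscle ran another way. Of 14 smooth muscle genes 12 were highest in the RA piece of sheep 7, against 3752 of all 18063 genes tested. ACTA2, smooth muscle actin, had 220 and 828 CPM in LC and 1005 and 245 CPM in RA tissue. MYH11, the smooth muscle myosin, had 150 and 492 CPM in LC and 709 and 173 CPM in RA tissue. In both genes sheep 18 and sheep 7 were high and sheep 10 and sheep 9 low.

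Genes of fibrillar collagens and fibroblasts had a median SD of 0.53. COL1A2, a chain of fibrillar collagen I, had 410 and 505 CPM in LC and 333 and 166 CPM in RA tissue. FN1, fibronectin, had 744 and 647 CPM in LC and 1105 and 743 CPM in RA tissue. ELN, the elastin precursor, had 35.7 and 94.7 CPM in LC and 29.7 and 18.4 CPM in RA tissue. Of these 22 genes 13 were lowest in the piece of sheep 9, the piece in which 25 of 30 ribosomal protein genes were highest. Of all 18063 genes tested, 6266 were lowest and 5755 highest in that piece. With scaling by library totals alone the list counts for sheep 9 were 17 and 21, and those of all genes 9349 and 3157.

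**Figure D2:**
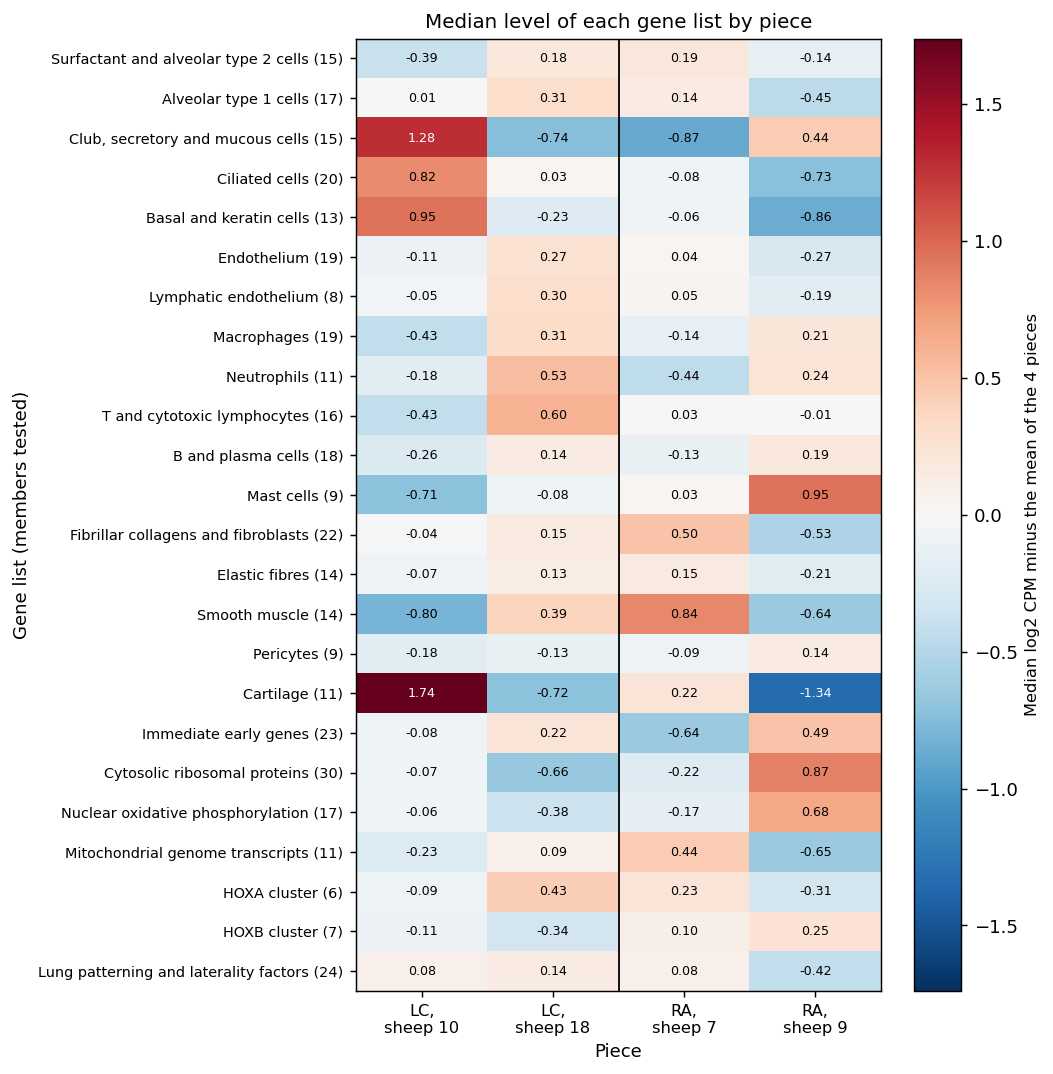
Median of each gene list in each piece, as log2 CPM minus the mean of the 4 pieces (red above, blue below), with the number of members tested in brackets and LC columns left of RA columns. Cartilage, secretory and ciliated lists stand highest in the LC piece of sheep 10, at 1.74, 1.28 and 0.82, and ribosomal protein genes in the RA piece of sheep 9, at 0.87.

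In no measure computed were the 2 pieces of a code the closest pair. The median absolute difference over the genes tested was 0.50 on the log2 scale between the LC pieces and 0.69 between the RA pieces. Between an LC and an RA piece it was 0.44 and 0.49 for sheep 10 and sheep 18 against sheep 7, and 0.63 and 0.78 for sheep 10 and sheep 18 against sheep 9. By this difference the closest pair was sheep 10 with sheep 7, of different codes, in which 21% of genes were 2-fold or more apart, against 24% for the LC pair and 34.7% for the RA pair. By correlation of log2 CPM over the genes tested, which are not independent, the closest pair was sheep 18 with sheep 7, also of different codes (Pearson's r 0.930, Spearman's rho 0.958). The spread between pieces, each a sum of 3 libraries, exceeded that between single libraries of a piece. Single libraries hold fewer counts than a piece, so the 2 SDs are not like measures. Over all genes tested the median SD of log2 CPM was 0.54 between pieces and 0.44 between the 3 libraries of a piece. Over 9559 genes with a mean of 10 CPM or more, these values were 0.41 and 0.24. Of all genes tested, 3669 (20.3%) had an SD of 1 or more between pieces. The labels do not say whether the 3 libraries came from separate extractions.

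The 12 genes that varied most, among those with a mean of 10 CPM or more, followed several patterns of high and low pieces, with 5 far higher in sheep 10 than in the other 3 sheep. Of the 12, 9 had no symbol, and the share of such IDs among all genes tested was not computed. MSMB, a protein secreted by mucosal glands, had 2923 and 27.7 CPM in LC and 67.6 and 567 CPM in RA tissue, so that sheep 10 was highest and sheep 18 lowest. FTL, the ferritin light chain, had 3.09 and 148.4 CPM in LC and 1.95 and 0.983 CPM in RA tissue, so that sheep 18 alone was high. Genes with processed copies elsewhere in the genome, such as FTL, TPT1 and the ribosomal protein genes, have uncertain counts, because reads can be split between copies. LOC105604849 had 1331 and 39.9 CPM in LC and 11.6 and 33.9 CPM in RA tissue, one of the 5 high in sheep 10, and LOC101111694 had 2.36 and 0.540 CPM in LC and 0.495 and 115.5 CPM in RA tissue, high in sheep 9 alone. LOC114113243 was low in sheep 18 alone, with 735 and 12.6 CPM in LC and 1102 and 779 CPM in RA tissue. LOC114116599 was high in 1 sheep of each code, with 88.7 and 2.68 CPM in LC and 86.3 and 1.75 CPM in RA tissue. TPT1 was the 1 gene of the 12 with a gap of over 2-fold between the nearest LC and RA pieces.

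**Figure D3:**
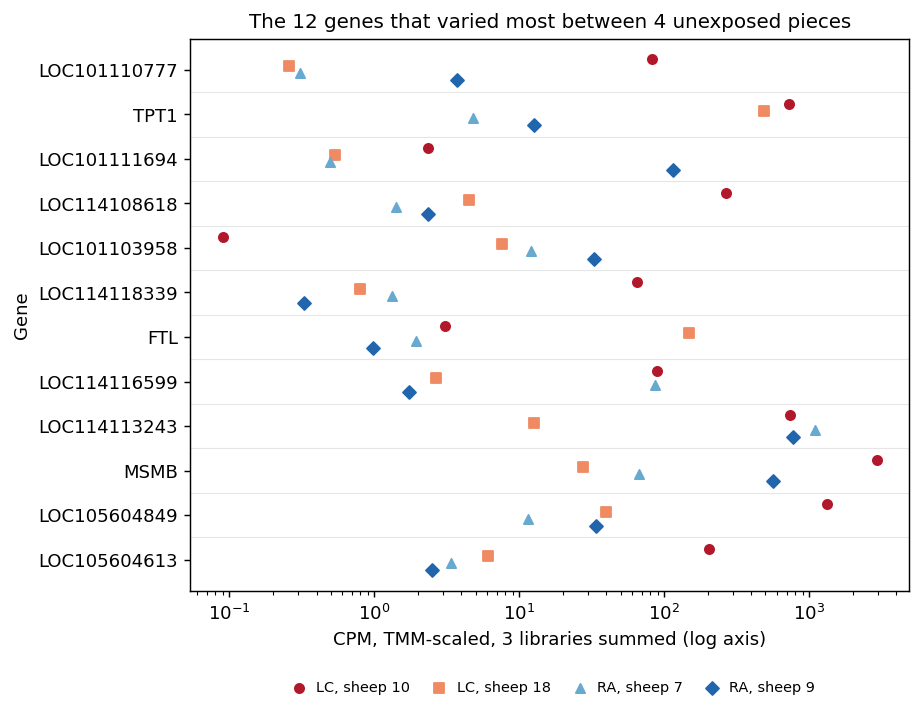
The 12 genes with the largest SD of log2 CPM between pieces, largest at the top, with CPM on a log axis and 1 point per piece. LC pieces are in red shades and RA pieces in blue shades, and in MSMB the LC pieces are the highest and the lowest point, with 2923 CPM in sheep 10 and 27.7 CPM in sheep 18.

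The comparison of LC with RA pieces asks whether the codes differ in tissue that received no treatment. By edgeR's quasi-likelihood test 0 of 18063 genes (0%) passed a Benjamini-Hochberg adjusted p of 0.05, and the smallest adjusted p was 0.146. At an unadjusted p under 0.05 there were 298 genes higher in LC (1.65%) and 372 lower (2.06%), in all 670, where 5% of the genes tested is 903. DESeq2 called 51 genes (0.282%), 12 higher and 39 lower in LC. Of the 51, 49 had ranges that did not overlap, against 17% of all genes tested with LC higher and 15.2% with LC lower. A small p on the same pieces nearly requires this, so it adds no support. Of the 51, 32 had LOC or tRNA identifiers instead of a gene symbol, and the share of these among all genes tested was not computed. Limma's voom called 1 gene, TPT1. With 1 piece left out, edgeR called 12 genes without sheep 10, 33 without sheep 18, 5 without sheep 7 and 2 without sheep 9, and in these fits the lone piece of a code is assumed to vary like the other code. The median half-width of the unadjusted 95% interval was 1.23 on the log2 scale. Differences of about 2-fold in a typical gene were thus not detectable with this number of sheep, even before adjustment. With adjustment far larger differences went uncalled, such as TPT1 with a log2 fold change of 6.13 and an edgeR adjusted p of 0.27. An exact permutation test of 2 against 2 pieces cannot go below p = 0.333.

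Both LC pieces stood above both RA pieces for 3071 genes (17%) and below them for 2739 genes (15.2%), so that 52.9% of these genes were higher in LC. With scaling by library totals alone the counts were 4660 above and 1568 below, and the share 74.8%. That scaling moved the median log2 difference of all genes to 0.26 against 0.02 with TMM scaling. A gap of at least 2-fold between the nearest LC and RA pieces was found for 265 genes higher in LC (1.47%) and 383 lower (2.12%), of which 40.9% were higher in LC, and 55.7% with scaling by library totals alone.

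TPT1, a translationally controlled tumour protein that is abundant in most tissues, had the widest gap on the LC side. It had 729 and 488 CPM in LC and 4.82 and 12.6 CPM in RA tissue, a log2 fold change of 6.13 (SE 0.75), with an edgeR adjusted p of 0.27 and a voom adjusted p of 0.0162. The next genes were expressed at low levels. PTGER3, a receptor for prostaglandin E2, had 10.6 and 10.7 CPM in LC and 1.18 and 1.58 CPM in RA tissue (log2 fold change 2.95, SE 0.56). WNT2, a ligand made by lung mesenchyme, had 8.56 and 12.1 CPM in LC and 2.04 and 1.37 CPM in RA tissue (log2 fold change 2.59, SE 0.57). TSEN15, a subunit of the tRNA splicing endonuclease, had 15.2 and 6.16 CPM in LC and 0.928 and 1.91 CPM in RA tissue. For each of these 3 genes DESeq2's adjusted p was under 0.05 and edgeR's was 0.987. Their levels also spread between the 3 single libraries of a piece. These SDs of log2 CPM were 1.16, 0.89 and 1.32 for PTGER3, WNT2 and TSEN15, against 1.68, 1.51 and 1.75 between pieces.

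DMBT1 and BPIFB1 were also among the 12 genes with the widest gap on the LC side. DMBT1, a scavenger receptor protein that binds bacteria and surfactant, had 981 and 770 CPM in LC and 205 and 280 CPM in RA tissue (log2 fold change 1.85, SE 0.56), the highest level of the 12. BPIFB1, a secreted protein of airway glands and secretory cells, had 162 and 99.7 CPM in LC and 40.9 and 30.9 CPM in RA tissue (log2 fold change 1.87, SE 0.45). The rest of the 12 were HOXA7, described with the homeobox genes, ATAT1, a tubulin acetyltransferase, at 23.6 and 15.5 CPM in LC and 6.06 and 6.01 CPM in RA tissue, and, at 2.16-fold to 3.05-fold between the nearest pieces, the ubiquitin ligase subunit FBXL7, the phosphatase PTP4A3, the endocytic adaptor HIP1R and LOC114117498. Between single libraries of a piece the SDs of log2 CPM were 0.85, 0.96 and 0.82 for FBXL7, PTP4A3 and HIP1R. Between pieces they were 0.96, 0.87 and 0.90. For LOC114117498 and ATAT1 they were 0.33 and 0.31 between libraries, against 1.88 and 0.99 between pieces.

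On the RA side few of the 12 genes had a symbol, and the share with a symbol among all genes tested was not computed. KLHL31, a kelch protein of muscle, had 5.36 and 4.99 CPM in LC and 19.9 and 28.5 CPM in RA tissue (log2 fold change -2.23, SE 0.43). SNCG, a synuclein, had 5.39 and 6.07 CPM in LC and 22.1 and 30.6 CPM in RA tissue (log2 fold change -2.20, SE 0.42). For both the 2 pieces of a code lay close together and the codes were over 3-fold apart. The widest gap belonged to LOC114115623, a protein-coding gene without a symbol, which had 1 and 0 counts in LC and 345 and 536 counts in RA tissue. LOC101103658 had 6 and 10 counts in LC and 678 and 83 in RA tissue, and LOC114111412, of the snRNA biotype, 4 and 1 counts in LC and 1094 and 24 in RA tissue. In both of these the RA pieces also lay far from each other. LOC101104216 and LOC101123533, both protein-coding by RefSeq, had 0.908 and 1.36 CPM and 3.81 and 4.41 CPM in LC, against 10.1 and 20.5 CPM and 20.1 and 22.4 CPM in RA tissue. Outside the 12, RPL39, a ribosomal protein gene, had 565 and 815 CPM in LC and 1582 and 8108 CPM in RA tissue, and SYCP3, a protein of meiotic chromosomes, 22.6 and 24.3 CPM in LC and 119 and 56.7 CPM in RA tissue.

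**Figure D4:**
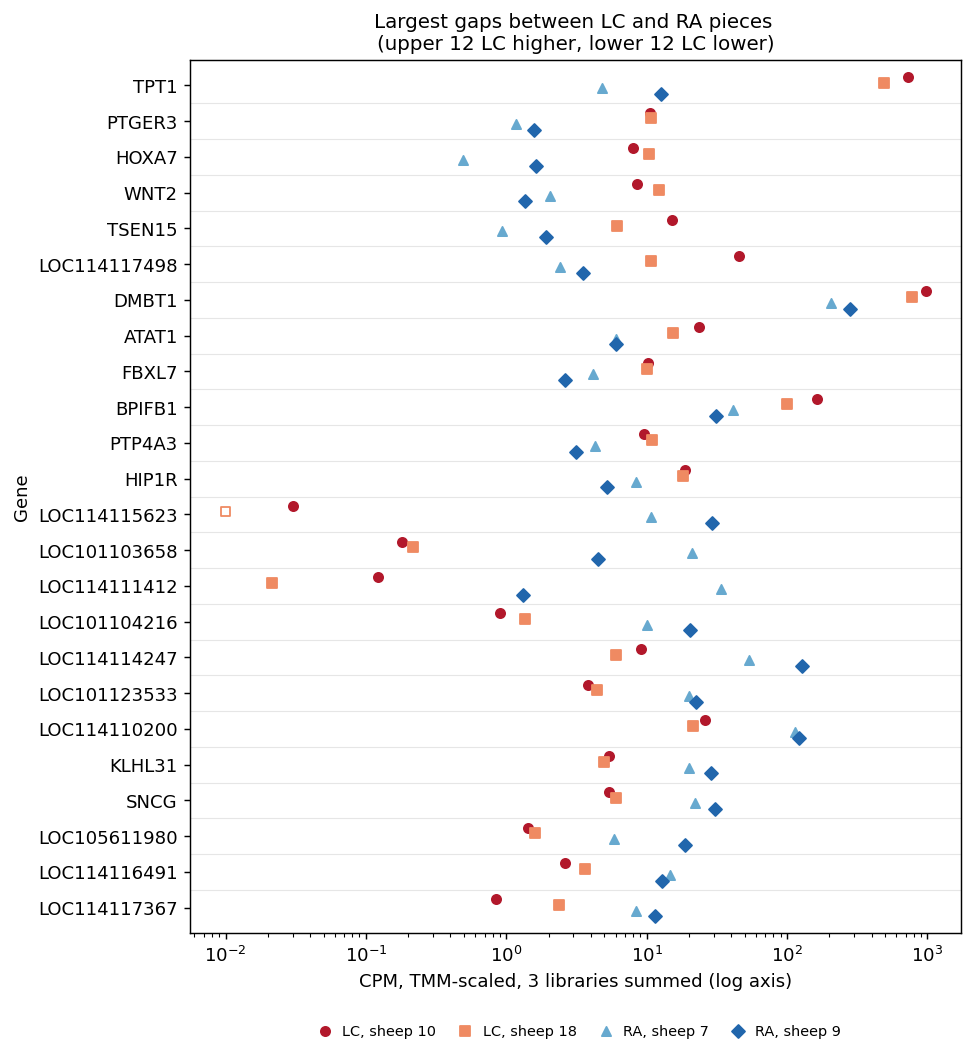
CPM on a log axis for the 24 genes with the widest gap between the nearest LC piece (red shades) and RA piece (blue shades), the upper 12 higher and the lower 12 lower in LC, with an open marker at 0.01 for a value of 0. TPT1 has 729 and 488 CPM in LC and 4.82 and 12.6 CPM in RA tissue, and LOC114115623 has 1 and 0 counts in LC.

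Of the 12 genes on the RA side, 4 were small nucleolar RNA (snoRNA) genes by RefSeq biotype, RNAs that guide the chemical modification of ribosomal RNA and are mostly cut from introns of other genes. LOC114110200 had 26.1 and 21.4 CPM in LC and 113.7 and 122 CPM in RA tissue (log2 fold change -2.31, SE 0.40), and LOC114114247 had 9.08 and 6.07 CPM in LC and 53.1 and 126.9 CPM in RA tissue. The whole biotype was then counted, a list chosen after these values were seen and so not tested. Of 211 snoRNA genes that passed the filter on low counts, out of 634 in the table, 85 had both LC pieces below both RA pieces and 5 had them above, against 15.2% and 17% of all genes. Their summed level was 1118 and 459 CPM in LC and 2172 and 1914 CPM in RA tissue, or 0.121% and 0.0506% of counts against 0.228% and 0.152%. The sum was lowest in sheep 18, where 140 of the 211 had their lowest value. The median log2 difference was -1.0 over all pieces, -2.25 without sheep 10, -0.53 without sheep 18, -0.55 without sheep 7 and -1.25 without sheep 9. Genes of the rRNA biotype took 0.419% and 0.272% of counts in LC and 0.835% and 0.747% in RA tissue. Reads on a snoRNA gene and on the gene that hosts it cannot be told apart in these counts. The libraries were primed at the poly-A tail, and whether these counts follow the level of mature snoRNA or rRNA was not tested.

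Among the gene lists, ciliated cell genes leaned towards LC. Of 20 genes of motile cilia, 19 had a higher fitted mean in LC, against 9259 of all 18063 genes, and 10 had both LC pieces above both RA pieces while 1 had them below, against 17% and 15.2% of all genes. Their median log2 difference was 0.78, against 0.02 for all genes, and by edgeR 0 of the 20 passed the adjusted threshold and 4 had an unadjusted p under 0.05. FOXJ1, the transcription factor that switches on the motile cilium genes, had 66.5 and 41.1 CPM in LC and 24.8 and 14.4 CPM in RA tissue (log2 fold change 1.46, SE 0.45). RSPH1, a radial spoke protein, had 94.8 and 93.5 CPM in LC and 63.8 and 35.5 CPM in RA tissue, and TPPP3, a tubulin-binding protein, 186 and 187 CPM in LC and 136 and 144 CPM in RA tissue. CCDC39, needed for the ruler that spaces the cilium's arms, overlapped, with 113.8 and 40.8 CPM in LC and 57.7 and 25.3 CPM in RA tissue. The ciliated median rested on the ends of the range, since 16 genes were highest in sheep 10 and 16 lowest in sheep 9. It was 0.35 without sheep 10 and 0.46 without sheep 9. Of 11 cartilage genes 10 were also highest in sheep 10, but 5 were lowest in sheep 18 and 6 in sheep 9. Unlike the ciliated median, the cartilage median turned negative without sheep 10, at -0.15. The part of cartilage genes in the ciliated difference was not tested.

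The secretory list had a median log2 difference of 0.70, with 2 of 15 genes apart and higher in LC (BPIFB1 and LTF) and 0 apart and lower, so that the count on the LC side was under the share of 17% over all genes. LTF, the iron-binding protein lactoferrin of glands, had 292 and 43.4 CPM in LC and 22.9 and 10.8 CPM in RA tissue, and the sheep 18 value lay closer to RA tissue than to sheep 10. Without sheep 10 its median was -0.23. The cartilage list went the same way, with a median of 1.47 over all 4 pieces and -0.15 without sheep 10. Basal and keratin cell genes were divided, with a median of 0.18 (-0.14 to 0.91 with 1 piece left out), 7 of 13 higher and 6 lower in LC by the fitted mean, and 3 apart and higher against 1 apart and lower. KRT5, a keratin of basal cells, had 27.8 and 4.90 CPM in LC and 2.54 and 0.874 CPM in RA tissue. S100A2, a calcium-binding protein of basal cells, had 675 and 157 CPM in LC and 303 and 1053 CPM in RA tissue, and KRT7, a keratin of simple epithelia, 114.4 and 188 CPM in LC and 194 and 257 CPM in RA tissue. Alveolar lists lay near 0. Type 1 genes had a median of 0.17, with 5 of 17 apart and higher in LC and 1 apart and lower, against 17% and 15.2% of all genes. Type 2 genes had a median of -0.15, with 2 of 15 apart and higher and 3 apart and lower, close to those shares. With scaling by library totals alone their median was 0.03, against 0.26 for all genes. SFTPC was among the 3, with a log2 fold change of -0.80 (SE 0.92). ETV5, a transcription factor that maintains type 2 cells in the mouse, had 27 and 37.2 CPM in LC and 54.4 and 60.2 CPM in RA tissue. With 1 piece left out the type 1 median ran from -0.01 to 0.52 and the type 2 median from -0.33 to 0.28. HOPX, a type 1 cell marker, had 1031 and 453 CPM in LC and 941 and 2621 CPM in RA tissue and overlapped.

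Medians of the vascular and immune lists ran from -1.05 for mast cells to 0.32 for neutrophils, against 0.02 for all genes, with lymphoid follicle chemokines at -0.36. With 1 piece left out the neutrophil median ran from -0.02 to 0.70 and that of the chemokines from -0.88 to 0.41, so the sign of both turned with 1 sheep. Endothelial genes had a median of 0.11, with 5 of 19 apart and higher in LC and 1 apart and lower, against 17% and 15.2% of all genes. Macrophage genes had a median of 0.11, with 3 of 19 apart and higher and 2 apart and lower, close to those shares. With 1 piece left out the endothelial and macrophage medians ran from -0.17 to 0.51 and from -0.51 to 0.22. MMP12, the elastin-cleaving metalloproteinase of macrophages, had 29.4 and 15.5 CPM in LC and 8.10 and 1.75 CPM in RA tissue. C1QA, a subunit of complement C1q in the macrophage list, was apart the other way, with 295 and 731 CPM in LC and 821 and 1211 CPM in RA tissue. Of 16 T and cytotoxic lymphocyte genes 5 were apart and lower in LC and 0 apart and higher, against 15.2% and 17% of all genes, yet 9 had a higher fitted mean in LC and the median was 0.17. That median was 0.69 without sheep 10, -0.60 without sheep 18 and -0.04 without sheep 9. CD3G, a chain of the T cell receptor complex, had 124 and 89.7 CPM in LC and 165 and 297 CPM in RA tissue, whereas CD3E of the same complex overlapped at 70.0 and 103 CPM in LC and 118 and 83.4 CPM in RA tissue. Mast cell genes had the lowest median of the marker lists, -1.05, with 4 of 9 apart and lower in LC and 0 apart and higher, against the same shares of all genes. GATA2, a transcription factor that mast cells need, overlapped at 27.4 and 20.6 CPM in LC and 20.9 and 36.4 CPM in RA tissue, as did MCEMP1, a membrane protein of mast cells, at 7.2 and 13.7 CPM in LC and 8.2 and 8.90 CPM in RA tissue (log2 fold change 0.29). KIT, the receptor on which mast cells depend, had 11.4 and 16.2 CPM in LC and 19.4 and 33.9 CPM in RA tissue, and SLC18A2, a transporter that fills granules with amines, 9.62 and 8.03 CPM in LC and 12.7 and 23.9 CPM in RA tissue. FCER1A, a chain of the IgE receptor, had 0.333 and 2.89 CPM in LC and 1.11 and 28.1 CPM in RA tissue. Of the 9 mast cell genes 7 were highest in sheep 9, and the list's median was -0.50 at its nearest to 0 with 1 piece left out.

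Ribosomal protein genes had a median log2 difference of -0.73, with 8 of 30 apart and lower in LC and 0 apart and higher, against 15.2% and 17% of all genes. They took 6.25% and 4.02% of counts in LC and 5.33% and 11.1% in RA tissue. Without sheep 9 the median was -0.04. Nuclear genes of oxidative phosphorylation followed the same path, at -0.48 with all pieces and -0.02 without sheep 9. Transcripts of the mitochondrial genome had a median of -0.20, and with scaling by library totals alone 0.01, against 0.26 for all genes. Without sheep 9 it was -0.49 and without sheep 7 it was 0.54.

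**Figure D5:**
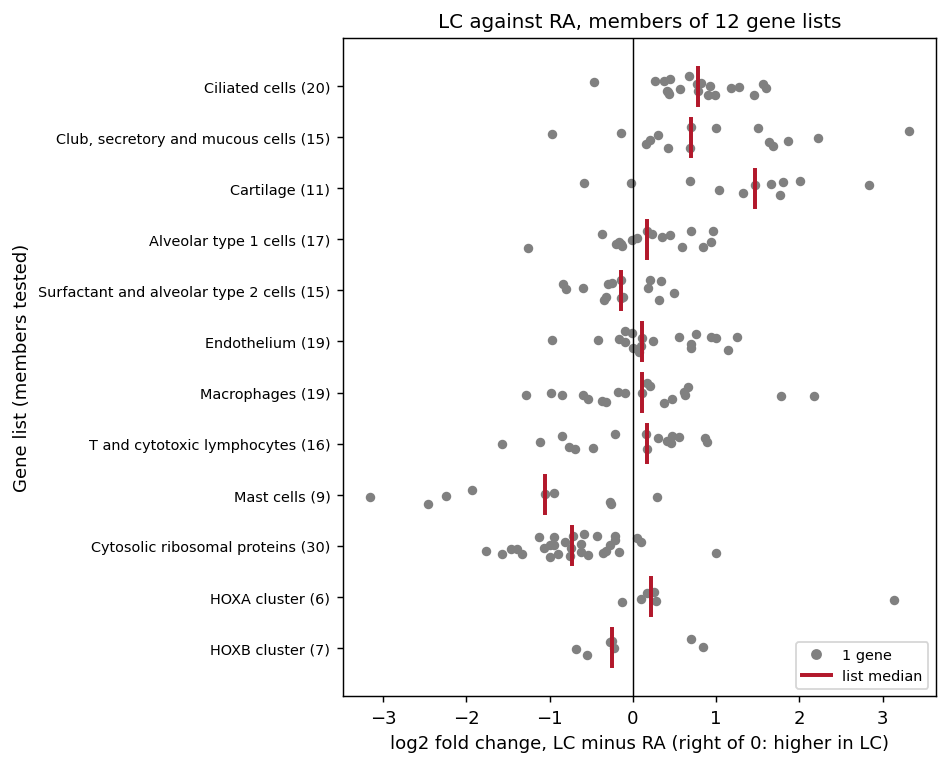
Log2 fold change of LC minus RA for each tested member of 12 gene lists (grey points, 1 per gene, right of 0 higher in LC), with the list median as a red bar. Ciliated cell genes lie right of 0 except for 1, with a median of 0.78, ribosomal protein genes have a median of -0.73, and HOXA7 is the HOXA point at 3.13.

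Homeobox genes of the HOX clusters are switched on in an order along the body axis in the embryo, and lung keeps a part of that pattern. HOXA7, one of them, had 8.05 and 10.3 CPM in LC and 0.495 and 1.64 CPM in RA tissue, a log2 fold change of 3.13 (SE 0.73), with an edgeR adjusted p of 0.987 and a DESeq2 adjusted p of 0.0273. With 1 piece left out the value ran from 2.47 to 4.20. Its sign could not turn in these fits, because both LC pieces lay above both RA pieces. The SD of log2 CPM of HOXA7 was 1.21 between single libraries of a piece and 1.99 between pieces. With TMM scaling HOXA7 was the 1 gene apart of 6 HOXA genes tested. With scaling by library totals alone 2 of the 6 were apart and higher in LC, against 4660 of all 18063 genes tested. HOXA5, the highest HOXA gene and one needed for lung development in the mouse, had 73.5 and 104 CPM in LC and 94.8 and 51.2 CPM in RA tissue. HOXA3 had 16.0 and 14.1 CPM in LC and 19.5 and 13.3 CPM in RA tissue, HOXA4 12.5 and 20.02 CPM in LC and 12.7 and 14.6 CPM in RA tissue, and HOXA2 7.87 and 9.65 CPM in LC and 9.43 and 6.88 CPM in RA tissue. HOXA9 had 28 counts in sheep 18 and 0 in the other 3 pieces, and HOXA6, HOXA10, HOXA11 and HOXA13 had 0 counts in all 4. Such genes cannot show whether the difference in HOXA7 was shared.

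Of the HOXB genes, HOXB5 had 15.0 and 23.1 CPM in LC and 11.7 and 9.56 CPM in RA tissue and was the 1 of 7 apart and higher in LC, while 3 were apart and lower, against 17% and 15.2% of all genes. HOXB7, one of those 3, had 6.08 and 6.09 CPM in LC and 10.4 and 9.18 CPM in RA tissue. Of 24 lung patterning and laterality factors 6 were apart and higher in LC and 2 apart and lower, against the same shares of all genes. The median log2 difference of these factors was 0.25, and 0.10 without sheep 9. FOXP1, a forkhead factor of lung epithelium and mesenchyme, had 246 and 427 CPM in LC and 245 and 128 CPM in RA tissue. Its nearest LC and RA pieces were thus almost level. TCF21, a factor of lung mesenchyme, overlapped at 119 and 182 CPM in LC and 162 and 249 CPM in RA tissue. TBX4, which marks lung mesenchyme, overlapped at 73.3 and 109.8 CPM in LC and 100.3 and 38.9 CPM in RA tissue, as did TBX3 at 98.6 and 148 CPM in LC and 136 and 95.8 CPM in RA tissue.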

How the data were processed

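RNA sequencing of unexposed sheep lung was analysed in 4 pieces of 3 libraries each. Per the labels' protocols, total RNA was primed at the poly-A tail with an index, amplified by template switching and tagmented. The authors deposited 1 table of raw counts per gene and library, not normalized. Tools listed in the submitters' processing notes are the aligner STAR 2.7.10b, the counter featureCounts with Subread 1.6.3, the trimmer Trimmomatic 0.39, FastQC 0.11.9 and edgeR 3.40.2. The sources used here give no genome build, strand setting or use of molecular identifiers, so reads of near-identical, overlapping or antisense genes cannot be told apart, and no coordinates or sequences are given. Of 30186 gene rows, 2 hold no value; these and 3 genes that the naming rule below picks are not reported here. Of the 30184 others, 25454 IDs (84.3%) matched a RefSeq table of the ARS-UI_Ramb_v3.0 assembly, used for names and biotypes alone.

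Control library totals were 6286591 to 16215732 counts. Counts were summed over the libraries of a piece and tests ran over pieces, so p-values measure the spread between these 4 pieces. Floors of 3 counts cover counting error only. LC was compared with RA in R 4.3.3 with edgeR 4.0.16 (quasi-likelihood test, robust fit, TMM scaling, a minimum count of 10 and total of 15, Benjamini-Hochberg adjustment at 0.05, 95% intervals). Log2 CPM used a prior count of 2. A gene was called apart where the ranges of the codes did not overlap. Alternatives were DESeq2 1.42.0, limma 3.58.1 with voom, other scalings, no filter, library numbers dropped and each piece left out.

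The control pieces, the 45 gene lists (655 of 756 symbols in the table) and the tests were chosen with earlier results of these data known. Genes named are the 30 highest, the 12 with the widest gap in each direction at a mean of 5 CPM or more, the 12 most variable at 10 CPM or more, the 4 highest of a list and the HOXA genes. NKX2-1, ETV5, FOXJ1, LTF, KRT5, MMP12, ELN, MYH11, COL2A1, FCER1A, TBX4, RPL39, SYCP3 and, in the closing section, FOS were named outside this rule, after their values were seen.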

Additional observations from a re-analysis of the deposited data

Results flagged for a closer look

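Each of 50 values (the most abundant, most variable and HOXA genes) was checked for a piece lying far from the other 3, by Dixon's 95% criterion for a gap relative to the range of 4 values, and 16 genes met it. Chance marks about 1 in 20 groups of independent, unselected values, which these are not, since 12 of the genes were chosen for their spread and gave 7 of the 16. The RA piece of sheep 9 was the one apart for 9 of them. It was high for LOC114108604 (20051 CPM), TMSB10 (17211 CPM), RPL8 (17635 CPM), RPS14 (16554 CPM), RPL27A (8761 CPM), RPS19 (7027 CPM), B2M (5336 CPM) and LOC101111694 (115.5 CPM), and low for ATP6 (1638 CPM). The LC piece of sheep 18 was high for FTL (148.4 CPM) and for HOXA9 (0.605 CPM, 28 counts). The LC piece of sheep 10 was high for LOC101110777 (82.2 CPM), LOC114108618 (267 CPM), LOC114118339 (64.6 CPM), LOC105604849 (1331 CPM) and LOC105604613 (204.8 CPM). No cause was tested for any of them.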

How the results depend on the processing

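The count of genes past the adjusted threshold, 0 by edgeR, was 51 by DESeq2, 1 by voom and 94 without the filter on low counts, and ran from 2 to 33 with 1 piece left out; the cause was not tested. Scaling by library totals alone gave 4660 genes with both LC pieces above both RA pieces and 1568 below, and no filter gave 467 and 635 genes with a gap of 2-fold or more. Other settings kept these counts within 1.5 times. The retention of the 30 highest genes (23 to 29) and the count of genes with an SD of 1 or more (2693 to 3880, against 3669) also stayed within 1.5 times. Among 49 list medians the sign changed in 36 of 392 fits under other settings (21 lists) and in 52 of 196 fits with 1 piece left out (37 lists). Of the 36 changes 13 came from scaling by library totals alone, which moved the median of all genes to 0.26 against 0.02, and 23 (11 lists) from the other settings. Among 32 abundant and HOXA genes it changed in 5 of 256 and in 20 of 128 fits. No paired analysis was possible because the 4 control pieces come from 4 different sheep. A ranking per kilobase was not run, since the gene table used gives no transcript length. Depth limits genes below about 0.164 CPM, 3 counts in the piece of sheep 9. The number of sheep limits the rest, as does the confounding of code with animal.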

Other observations

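Immediate early genes, which respond within minutes to many stimuli, differed between pieces of the same code. Of 23 immediate early genes 15 were highest in the RA piece of sheep 9 and 16 lowest in the RA piece of sheep 7. Over all 18063 genes tested these counts were 5755 and 3869. With scaling by library totals alone, 8 of the 23 were highest in sheep 9, against 3157 of all genes. FOS, a subunit of the AP-1 transcription factor named after its values were seen, had 70.1 and 137 CPM in LC and 21.2 and 187 CPM in RA tissue. JUN, its partner, was level, with 203 and 192 CPM in LC and 171 and 209 CPM in RA tissue. Chaperones of the heat shock response had a median SD of 0.55 on the log2 scale, against 0.54 for all genes tested. HSP90AA1, the most abundant of them, had 2677 and 1873 CPM in LC and 2854 and 1867 CPM in RA tissue, and HSPB1, a small heat shock protein, 372 and 717 CPM in LC and 496 and 280 CPM in RA tissue.

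Single genes of blood, mesothelium and fat, picked after their values were seen, were highest in the LC piece of sheep 10, while the other members of their lists were divided. Of 6 fat cell genes tested 1 was highest in sheep 10 and 4 in sheep 9, of 5 mesothelium genes 2 in sheep 10 and 3 in sheep 9, and of 2 globin genes 1 in each LC piece. With scaling by library totals alone the fat cell counts were 1 in sheep 10 and 3 in sheep 9, and the mesothelium counts 3 in sheep 10 and 0 in sheep 9. HBB, a beta-globin of red cells, had 43.2 and 2.10 CPM in LC and 1.70 and 7.65 CPM in RA tissue. MSLN, a surface protein of mesothelium, had 159 and 4.32 CPM in LC and 16.7 and 19.1 CPM in RA tissue. ADIPOQ, a hormone of fat cells, had 14.7 and 0.0864 CPM in LC and 0.680 and 0.0546 CPM in RA tissue. CD74, the invariant chain of class II antigen presentation, was instead highest in the LC piece of sheep 18, with 576 and 2112 CPM in LC and 963 and 428 CPM in RA tissue, and CFD, complement factor D, likewise, with 1416 and 4756 CPM in LC and 1872 and 1834 CPM in RA tissue.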
